A study of Mus musculus with 2 samples.

Results

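MHC class II molecules carry peptides from ingested and recycled proteins to the cell surface, where CD4 T cells read them. The 10 genes described here were taken by symbol from the 32245 symbols of the count matrices, and all 10 were found. H2-Aa and H2-Ab1 encode the alpha and beta chains of the I-A molecule. H2-Eb1 encodes the I-E beta chain, and Cd74 encodes the invariant chain, which guides class II through the cell and blocks its groove until peptide is loaded. Cd74 lies at chr18:60803848-60812652 on the plus strand (mm10, GENCODE M21). H2-DMa, H2-DMb1 and H2-DMb2 encode chains of H2-DM, which exchanges the last invariant-chain fragment for peptide. H2-Oa and H2-Ob encode H2-DO, which restrains H2-DM and is known best from B cells. Ciita encodes the class II transactivator, a co-activator that binds no DNA itself and drives transcription of class II genes. As background, dendritic cells, macrophages and B cells are the professional presenting cells, whereas endothelial cells and other cells outside the blood lineage can make class II after interferon gamma. C57BL/6 mice carry a null allele of the I-E alpha chain, so their H2-Eb1 transcript has no partner at the protein level.

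Adrenal glands came from female C57BL/6J mice with the genotype SF1-Cre+;Znrf3Fx/Fx, in which Cre under the SF1 promoter removes Znrf3 from steroidogenic cells. The labels place the 9-week library in a phase of regression and the 6-week library in hyperplasia, and the study asked how the immune cells of the gland differ between them. The 9-week library was made from 3 pooled adrenals and the 6-week library from 2. Both ages carry the deletion, no wild-type library was analysed here, and each age is 1 library, so every difference between ages is a difference between these libraries, with no replicate check and no test. Intervals are exact 95% intervals that cover counting error only. RNA was captured with 3' chemistry, in which each transcript is read once at its 3' end and counted as a unique molecular identifier (UMI), so levels need no correction for length. They are given scaled to the total UMIs of the class (CPM).

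After filtering, 9941 cells at 9 weeks and 8133 cells at 6 weeks remained, with medians of 7029 and 11348 UMIs. Doublet calling had removed 586 barcodes at 9 weeks and 475 at 6 weeks, and the libraries shared 29 barcode sequences, 26 of them among the kept cells. Clusters were rebuilt with the class II genes left out of the clustering, and were named "X-like" from their markers, so a class may differ from the one the study used. Cells of type 1 dendritic-like clusters numbered 957 at 9 weeks and 187 at 6 weeks, macrophage-like cells 2271 and 971, B-like cells 333 and 135, endothelial-like cells 1530 and 1467, and adrenocortical-like cells 1417 and 3703. Another cortical cluster, number 4, held 656 and 559 cells and carried all 9 cortical markers. It is called by its number because its 10 leading genes held Ly6d, also a plasmacytoid dendritic marker, and no cortical marker, whereas those of the adrenocortical-like cluster 5 held Ly6d and the cortical marker Cyp11a1. T/NK-like cells, which in mice make little or no class II, served as the class that should lack the genes.

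The class II members lie in 1 stretch of chromosome 17, from the start of H2-Oa at 34092340 to the end of H2-Eb1 at 34316674 (mm10, GENCODE M21). Ciita, at chr16:10480059-10528418 on the plus strand, and Cd74 lie on other chromosomes. As background, Ciita acts at class II promoters through proteins that sit on neighbouring elements, among them the X box, bound by the RFX complex, and the Y box, bound by NF-Y. Promoters of 7 of the 10 members were found in the RefSeq table (GRCm38.p6), and H2-Ab1, Cd74 and Ciita were not among them. In 6 of the 7 the letters ATTGG, the core of a Y box, began 40 to 100 bases before the RefSeq gene start on the gene's strand. Among all 32851 promoters of 300 bases in the table, 7.71% did so. In 4 members, H2-Aa, H2-Eb1, H2-Oa and H2-Ob, GCAAC, a part of the X box, began 20 to 40 bases ahead of an ATTGG, as in 0.521% of all promoters. Either word alone was common, with ATTGG on either strand in 37.4% of promoters and GCAAC in 35.2%. The 70-base windows below are given 5′ to 3′ on the gene's strand, and are shown because the same letters recur at a like distance from the gene start. Capitals mark ATTGG and, where it is present at that spacing, GCAAC. A match is a description of the letters and not a bound site.
H2-Aa (chr17:34287857-34287926, minus strand): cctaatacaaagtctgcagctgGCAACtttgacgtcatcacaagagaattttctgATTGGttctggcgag
H2-Eb1 (chr17:34305753-34305822, plus strand): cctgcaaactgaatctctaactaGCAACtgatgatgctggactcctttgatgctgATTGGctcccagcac
H2-Oa (chr17:34092281-34092350, plus strand): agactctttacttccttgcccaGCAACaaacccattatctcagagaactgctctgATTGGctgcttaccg
H2-Ob (chr17:34238793-34238862, plus strand): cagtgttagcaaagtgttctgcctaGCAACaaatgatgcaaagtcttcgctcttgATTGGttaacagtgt
H2-DMb1 (chr17:34153075-34153144, plus strand): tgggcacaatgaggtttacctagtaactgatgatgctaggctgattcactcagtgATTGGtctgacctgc
H2-DMb2 (chr17:34145104-34145173, plus strand): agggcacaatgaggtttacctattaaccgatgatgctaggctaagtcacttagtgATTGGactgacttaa

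Summed over H2-Aa, H2-Ab1, H2-Eb1 and Cd74, class II took up several percent of all UMIs in the presenting classes. Macrophage-like cells held 56146 CPM at 9 weeks (56034 to 56258) and 33742 CPM at 6 weeks (33598 to 33886). Mature dendritic-like cells held 49166 and 47224 CPM, and type 2 dendritic-like cells 46278 and 44363 CPM. Type 1 dendritic-like cells held 44685 CPM at 9 weeks and 43052 CPM at 6 weeks. Macrophages therefore stood above the type 1, type 2 and mature dendritic-like classes at 9 weeks and below all of these at 6 weeks. B-like cells held 25960 and 23505 CPM, monocyte-like cells 13289 and 12732 CPM, and plasmacytoid dendritic-like cells 13132 and 10266 CPM. The monocyte and plasmacytoid intervals overlapped at 9 weeks and are not ordered there.

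The monocyte level was an average over unlike cells. The lower quartile of monocyte-like barcodes was 1 class II UMI at either age, whereas the upper quartile was 157 UMIs at 9 weeks and 118 UMIs at 6 weeks. After every cell was thinned to 2000 UMIs, 47.7% of monocyte-like cells at 9 weeks and 47.9% at 6 weeks had 3 or more class II UMIs, and 32.7% and 31.9% had none. Every type 1 dendritic-like cell had at least 3, as did all but 1 of 303 B-like cells at 9 weeks and all 108 at 6 weeks.

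**Figure D1:**
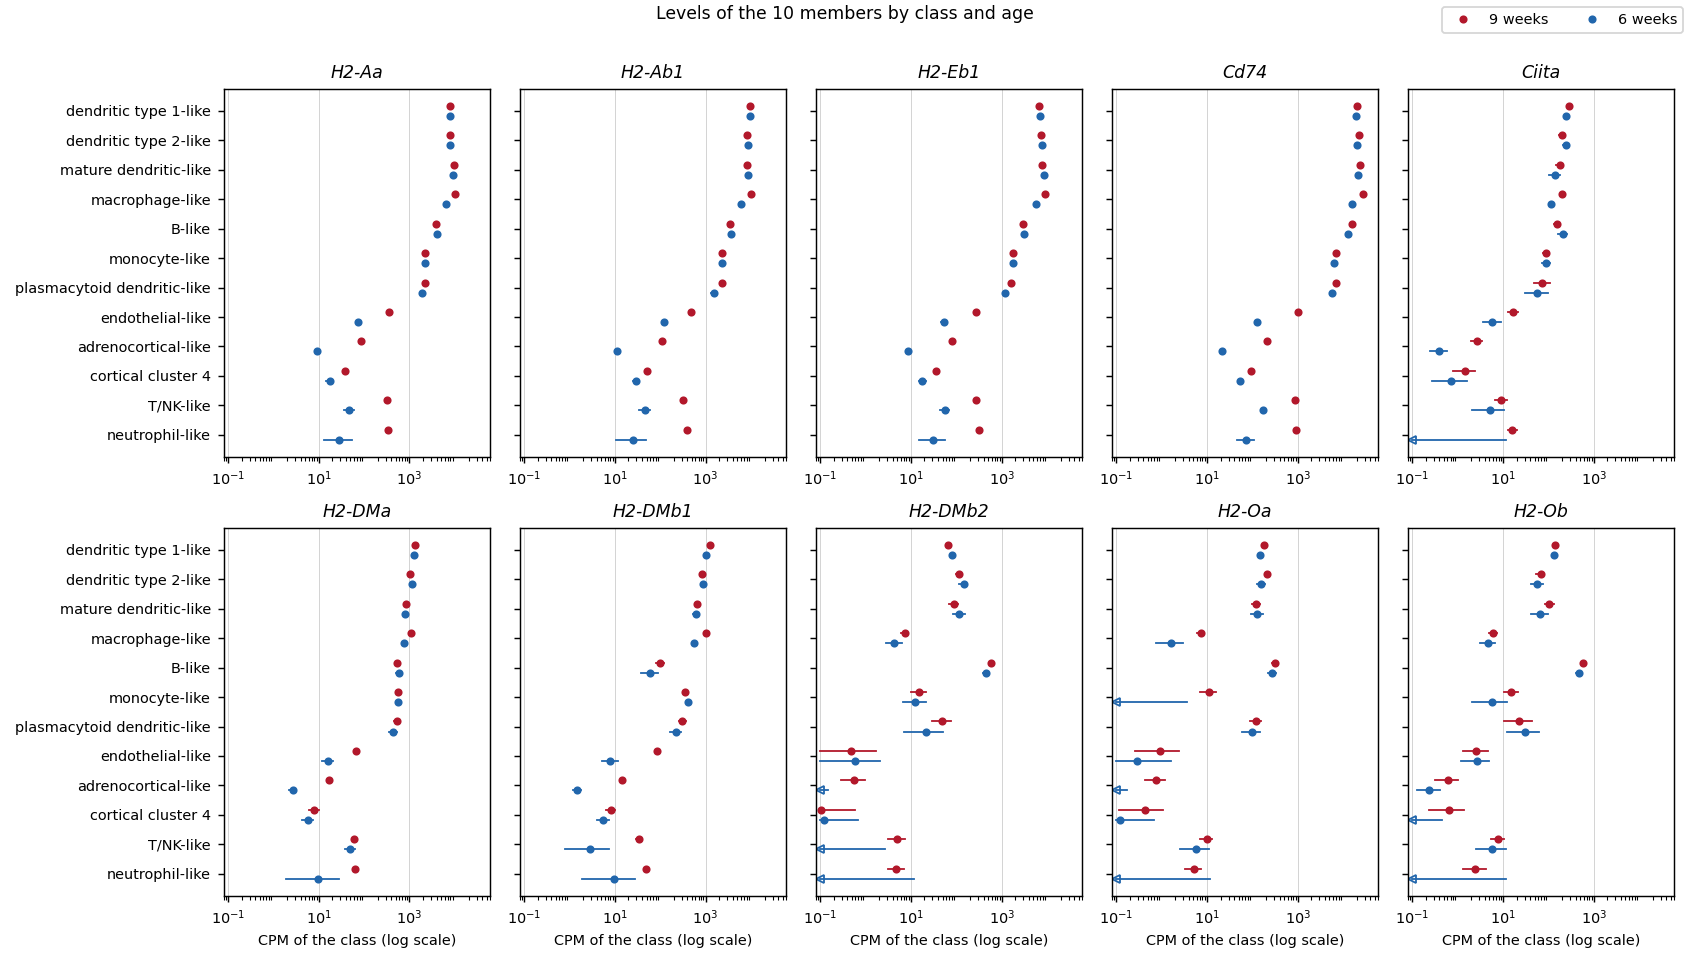
CPM of each of the 10 genes by cell class on a log axis, with 9 weeks above 6 weeks and exact 95% Poisson intervals as bars, where open triangles mark levels under the axis, 0 included. Macrophage Ciita stands at 202 CPM at 9 weeks and 114 CPM at 6 weeks, whereas the levels of the type 1 dendritic-like cells nearly coincide.

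Ciita, the co-activator of class II genes, was a rare transcript wherever class II was abundant. Type 1 dendritic-like cells held 288 CPM at 9 weeks and 249 CPM at 6 weeks, the highest of the classes at 9 weeks and level with type 2 dendritic-like cells at 6 weeks. Macrophage-like cells held 202 and 114 CPM, type 2 dendritic-like cells 199 and 247 CPM, B-like cells 159 and 207 CPM, and monocyte-like cells 90.1 and 90.7 CPM. At 2000 UMIs per cell, Ciita was seen in 43.6% of type 1 dendritic-like cells at 9 weeks and 44.6% at 6 weeks, and in 31.0% and 17.3% of macrophage-like cells. It was seen in 1.12% and 0.38% of T/NK-like cells thinned to the same depth. Across 22 pairs of class and library, the log level of Ciita went with that of the class II sum at r = 0.98, a description of points that share 2 libraries.

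H2-DM and H2-DO separated the presenting classes further. H2-DMb1 and H2-DMb2 are neighbouring copies of a beta-chain gene, and reads that fit both could be split between them, so their balance is uncertain in size. Of the UMIs of both, H2-DMb2 made up 85.6% in B-like cells at 9 weeks (83.0% to 88.0%) and 88.5% at 6 weeks (83.3% to 92.6%). It made up 4.94% and 7.52% in type 1 dendritic-like cells, 12.3% and 14.3% in type 2 dendritic-like cells, and 0.73% and 0.75% in macrophage-like cells. The balance was thus turned round in B-like cells at both ages. H2-DMb1 stood at 98.8 and 59.6 CPM there, against 1265 and 1012 CPM in type 1 dendritic-like cells, and H2-DMb2 at 589 and 459 CPM against 65.8 and 82.3 CPM.

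The H2-DO genes were highest in B-like cells as well. H2-Ob stood at 571 CPM at 9 weeks and 469 CPM at 6 weeks in B-like cells, at 140 and 132 CPM in type 1 dendritic-like cells, and at 5.95 and 4.64 CPM in macrophage-like cells. H2-Oa stood at 310 and 269 CPM, 180 and 149 CPM, and 7.41 and 1.60 CPM in the same classes. H2-DO is known to act by binding H2-DM, so its share of the UMIs of H2-DO and H2-DM together is of interest. The share was 42.2% at 9 weeks and 40.3% at 6 weeks in B-like cells, 10.7% and 10.6% in type 1 dendritic-like cells, 12.5% and 9.02% in type 2 dendritic-like cells, and 0.64% and 0.46% in macrophage-like cells. B-like cells stood above the other 3 and macrophage-like cells below them at both ages, and the intervals of the dendritic classes overlapped at 6 weeks. The chains were also unlike in balance, since H2-Ob made up 64.8% and 63.5% of the H2-DO UMIs in B-like cells and 24.1% and 27% in type 2 dendritic-like cells. H2-Eb2, a class II gene next to the E locus that is no member, reached 132 and 94.1 CPM in mature dendritic-like cells and 52.9 and 67.4 CPM in B-like cells, against 2.48 and 1.14 CPM in type 1 dendritic-like cells.

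**Figure D2:**
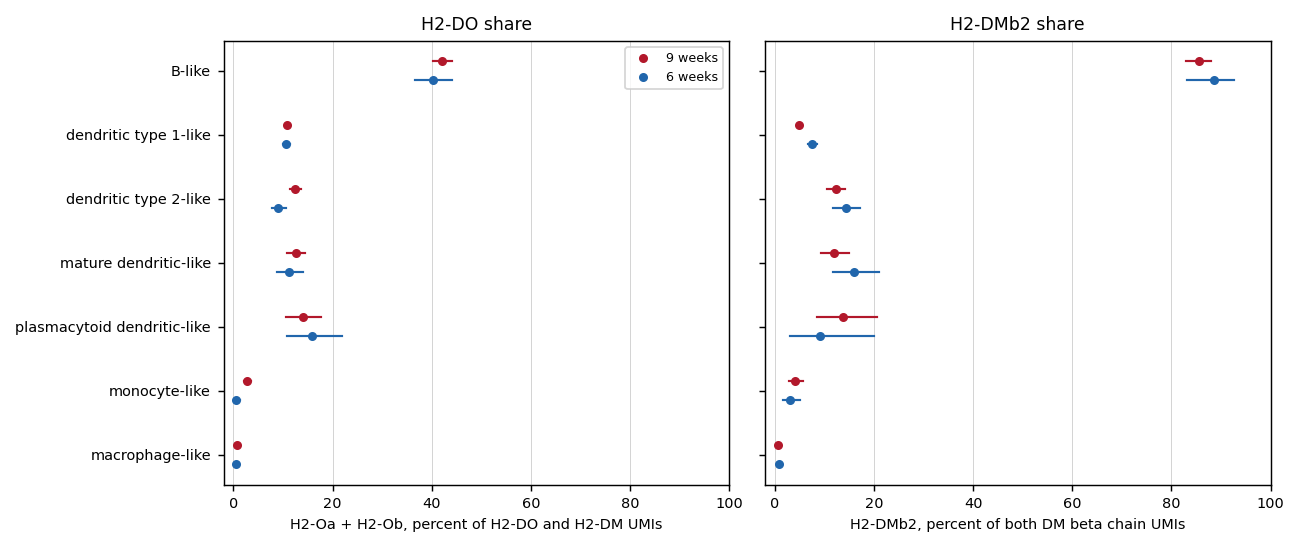
Share of H2-DO in the UMIs of H2-DO and H2-DM (left) and of H2-DMb2 in those of both H2-DMb genes (right), in percent by presenting class, 9 weeks above 6 weeks, with exact 95% binomial intervals. B-like cells stand apart at 42.2% and 40.3% on the left and 85.6% and 88.5% on the right.

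Between the ages the type 1, type 2 and mature dendritic-like classes differed little. A gene was counted as higher or lower where its CPM, with 5 CPM added, differed by at least 1.5-fold, among genes with 10 CPM in either library and 10 UMIs in all. In type 1 dendritic-like cells 0 of the 10 members were higher at 9 weeks and 0 lower, where 1.29% of all genes were higher and 1.15% lower. In type 2 dendritic-like cells the counts were again 0 and 0 of 10, with 11.7% of all genes higher and 6.59% lower. With the 9-week level over the 6-week level, the class II sum had a ratio of 1.04 in type 1, type 2 and mature dendritic-like cells. It was also 1.04 in monocyte-like cells, and 1.1 in B-like cells. Plasmacytoid dendritic-like cells had a higher class II sum at 9 weeks, as given above. With 50 cells at 9 weeks and 31 at 6 weeks, they were too few for counts of members. In B-like cells 1 of 10 members, H2-DMb1, was past 1.5-fold, at a log2 ratio of 0.68 with an interval of -0.13 to 1.53 that holds 0, where 16.6% of all genes were higher and 5.81% lower. In monocyte-like cells 2 of 10 were, where 6.52% of all genes were higher and 3.65% lower. They were H2-Oa, with 24 UMIs at 9 weeks and 0 at 6 weeks, and H2-Ob, with 33 UMIs and 6 UMIs.

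Among the presenting classes with counts of members, macrophage-like cells were the one in which the members stood apart. Of the 7 members measured there, 6 were higher at 9 weeks and 0 lower, where 1.47% of all genes were higher and 2.70% lower. The median log2 ratio of the 7 was 0.72, beside 0.03 over all genes, and the class II sum was 1.66 times as high (1.65 to 1.67). Cd74 stood at 27215 CPM at 9 weeks and 15610 CPM at 6 weeks, a log2 ratio of 0.80. H2-Ab1 had a log2 ratio of 0.72, H2-Eb1 of 0.68 and H2-Aa of 0.62. Ciita itself had a ratio of 0.80, with 202 CPM at 9 weeks and 114 CPM at 6 weeks. The H2-DM chains were unequal, since H2-DMb1 had a ratio of 0.81 and H2-DMa, the member that stayed under 1.5-fold, one of 0.47. H2-DMb2, H2-Oa and H2-Ob were below 10 CPM at both ages in macrophages.

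The cells behind these means were distributed differently. The median macrophage-like barcode held 410 class II UMIs at 9 weeks and 170 at 6 weeks, and the lowest 10% held up to 171 UMIs at 9 weeks and up to 15 at 6 weeks. The clusters had unequal parts in the class at the ages, as cluster 2, led by C1qc, Ms4a7 and Apoe, had 1887 of its 2271 cells in the 9-week library and 422 of 971 in the 6-week library. Cluster 8, led by C1qa, Pf4 and Mrc1, held 166 cells at 9 weeks and 420 at 6 weeks. In cluster 2 the class II sum was 59491 and 49201 CPM, with Ciita at 214 and 170 CPM. In cluster 8 it was 55835 and 21545 CPM, with Ciita at 200 and 72.5 CPM. Class II was thus higher at 9 weeks within each, by 1.21 times in cluster 2 and by 2.59 times in cluster 8. The cycling cluster 18, with 42086 and 24726 CPM, and cluster 21, led by Mmp12 and Gpnmb, with 31161 and 19348 CPM, had ratios of 1.70 and 1.61. With the clusters given equal weight, 6 of 7 members were still higher, and the log2 ratio of the sum was 0.72 beside 0.73.

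Genes around the members in the pathway were described from lists. The transcription factor list held the RFX and NF-Y genes, and others such as Creb1, Irf8, Spi1 and Prdm1. In macrophage-like cells 0 of its 10 measured genes were higher or lower, with a median log2 ratio of 0.03. Rfx5, the DNA-binding subunit of RFX, had 10.8 CPM at 9 weeks and 8.47 CPM at 6 weeks. Irf1, which binds the interferon-responsive Ciita promoter, was past 1.5-fold, with 155 CPM at 9 weeks and 100 CPM at 6 weeks. Of 7 peptide-processing genes, 0 were higher and 1 was lower, Ctsd, a lysosomal protease, with 1009 CPM at 9 weeks and 1884 CPM at 6 weeks. The lists of class II turnover and of costimulation had 0 of 3 and 0 of 5 genes past 1.5-fold.

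Endothelial-like cells carried class II at a level far below the presenting classes. Their class II sum was 2113 CPM at 9 weeks (2069 to 2157) and 376 CPM at 6 weeks (355 to 397), a ratio of 5.62 (5.21 to 6.07). These levels depended on doublet removal, since with called doublets kept they were 6805 CPM and 1077 CPM. All 7 measured members were higher at 9 weeks, where 1.34% of all genes were higher and 1.40% lower. Cd74 stood at 1023 and 126 CPM, H2-Ab1 at 477 and 122 CPM, H2-Aa at 346 and 74.1 CPM, and H2-Eb1 at 267 and 54.2 CPM. H2-DMa had 66.2 and 15.8 CPM, and H2-DMb1 had 84.1 and 7.91 CPM. H2-DMb2 had 2 UMIs at each age, H2-Oa 4 UMIs and 1 UMI, and H2-Ob 11 and 9 UMIs. H2-DO made up 2.30% of the UMIs of H2-DO and H2-DM at 9 weeks (1.29% to 3.76%) and 10.8% at 6 weeks (5.28% to 18.9%), the second from 10 UMIs. Ciita rested on 71 UMIs at 9 weeks, 16.8 CPM (13.1 to 21.2), and on 20 UMIs at 6 weeks, 5.86 CPM (3.58 to 9.05).

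RNA free in the suspension enters droplets of every class, so classes that should lack class II were set beside the endothelial-like cells, and the part of free RNA in the levels was not tested. T/NK-like cells held 1764 CPM at 9 weeks and 324 CPM at 6 weeks, a ratio of 5.45 (4.86 to 6.12), and 5 of their 6 measured members were higher, where 5.04% of all genes were. Neutrophil-like cells held 1991 and 157 CPM, and all 7 of their measured members were higher, where 26.5% of all genes were. That class was made of unlike clusters at the ages. Of its 795 cells at 9 weeks, 284 were in cluster 13 and 72 in cluster 27, which held 2 and 0 cells at 6 weeks. Over all kept cells the class II sum was 21858 CPM at 9 weeks and 4773 CPM at 6 weeks, a ratio of 4.58.

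Class II UMIs were less concentrated in endothelial than in T/NK barcodes at 9 weeks. At least 1 was seen in 86.5% of endothelial-like barcodes and in 67.6% of T/NK-like barcodes. The median endothelial-like barcode held 3 class II UMIs at 9 weeks and 0 at 6 weeks, and the highest 10% held at least 14 and 2. The median T/NK-like barcode held 1 and 0, and the highest 10% at least 4 and 1, although T/NK-like cells were deeper, with medians of 3901 and 3369 UMIs in all against 2631 and 2106 UMIs in endothelial-like cells. Barcodes with 10 or more class II UMIs made up 16.1% of endothelial-like cells at 9 weeks (246 cells) and 1.43% at 6 weeks (21 cells), and held 57.4% and 36.1% of the class II UMIs of the class. Such barcodes made up 4.15% and 1.31% of T/NK-like cells, and held 85.6% and 65.8% of the class II UMIs there. At 9 weeks 22 barcodes with 50 or more also had a mean of 121 UMIs of 9 macrophage genes, beside 8.27 in T/NK-like barcodes with no class II UMI. In neutrophil-like cells 3.77% of barcodes held 90.6% of the class II UMIs at 9 weeks.

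Thinning to 2000 UMIs per cell kept this difference. With 3 or more class II UMIs there were 46.7% of 1157 endothelial-like cells at 9 weeks (43.8% to 49.6%) and 5.34% of 824 at 6 weeks (3.91% to 7.10%). Among T/NK-like cells these shares were 8.38% (6.65% to 10.4%) and 2.67% (1.08% to 5.43%). The endothelial share stood above the T/NK share at 9 weeks, and the intervals overlapped at 6 weeks. Endothelial-like cells under 2000 UMIs, 373 at 9 weeks and 643 at 6 weeks, were left out. With any class II UMI there were 81% and 30.3% of endothelial-like cells (86.5% and 34.4% unthinned), against 45.8% and 21% of T/NK-like cells (67.6% and 31.7% unthinned). Ciita was seen in 3.54% of thinned endothelial-like cells at 9 weeks (2.55% to 4.78%) and 0.97% at 6 weeks (0.42% to 1.90%). In T/NK-like cells it was seen in 1.12% (0.54% to 2.05%) and 0.38% (0.01% to 2.11%), so the intervals were apart at 9 weeks and not at 6 weeks.

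**Figure D3:**
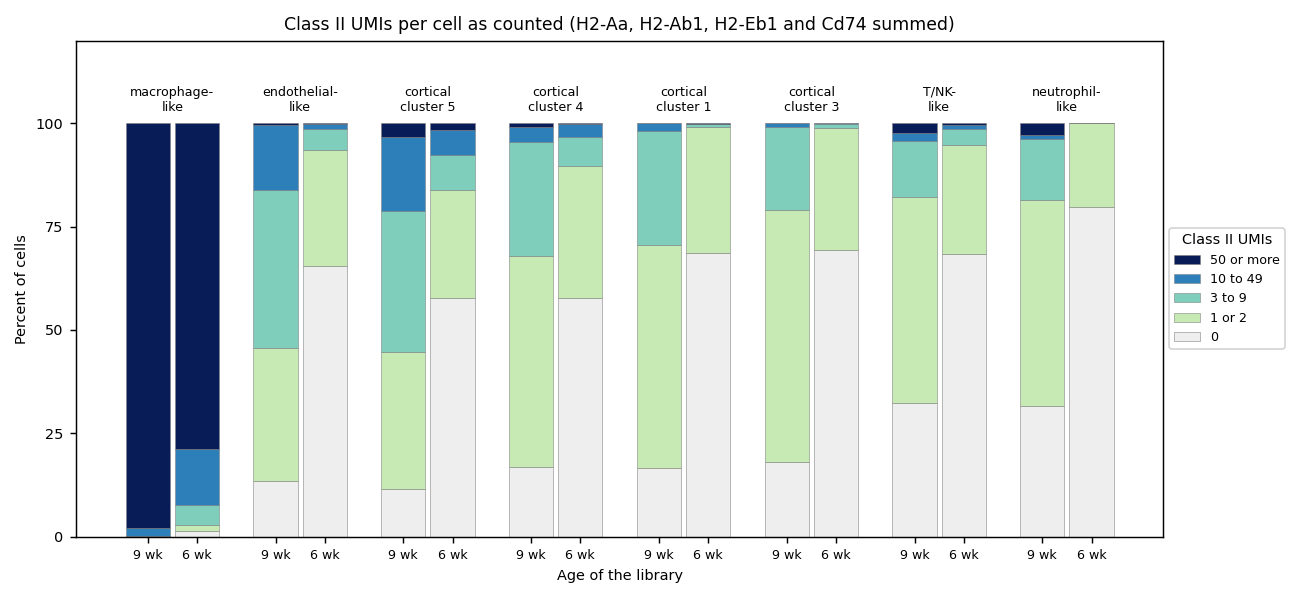
Percent of cells by number of class II UMIs as counted (H2-Aa, H2-Ab1, H2-Eb1 and Cd74 summed), in macrophage-like and endothelial-like cells, 4 cortical clusters, T/NK-like and neutrophil-like cells, with 9 weeks left of 6 weeks. Barcodes with 10 or more make up 16.1% and 1.43% of endothelial-like cells and 4.15% and 1.31% of T/NK-like cells.

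Within the endothelial-like cells, H2-DM went with class II and Ciita did not do so clearly. Among thinned cells at 9 weeks, H2-DMb1 was seen in 22.2% of the 540 with 3 or more class II UMIs (18.8% to 26.0%) and in 7.27% of the 220 with none (4.21% to 11.5%). For H2-DMa the shares were 18.1% and 5.45%. For Ciita they were 4.26% (2.72% to 6.32%) and 4.09% (1.89% to 7.62%), indistinguishable at this depth. Endothelial transcripts were alike in cells with 3 or more class II UMIs and in those with none. The endothelial genes read here are among the markers that named the class, and the source of the class II UMIs was not tested. The mean of 6 endothelial genes was 22.0 UMIs in cells with 3 or more class II UMIs and 21 UMIs in those with none, and Cdh5, the endothelial cadherin, had 919 and 855 CPM. At least 1 of 7 pan-leukocyte genes was seen in 24.1% of the first and 20.5% of the second. Irf1 had 230 and 182 CPM in the same cells, with overlapping intervals, and Ifi30 had 29.6 and 9.09 CPM, also with overlapping intervals. Macrophage genes were seen more often in barcodes with class II. As counted at 9 weeks, C1qa, C1qb or C1qc was seen in 14.1% of endothelial-like barcodes with no class II UMI. The share was 21.6% with 1 or 2, 20.8% with 3 to 9 and 25.5% with 10 to 49 class II UMIs.

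Class II UMIs were also set against those of the complement C1q genes (C1qa, C1qb and C1qc), which macrophages make in quantity and which were chosen after the data had been seen. T/NK-like cells had 5.56 class II UMIs per C1q UMI at 9 weeks (5.25 to 5.88) and 3.11 at 6 weeks (2.57 to 3.78), beside 5.15 and 3.27 over all kept cells. Neutrophil-like cells had 5.91 and 3.12. The T/NK ratios at both ages and the neutrophil ratio at 9 weeks rest mostly on the few barcodes with 10 or more class II UMIs, and the part of free RNA in any of these ratios was not tested. Endothelial-like cells had 11.8 at 9 weeks (11.0 to 12.8) and 6.90 at 6 weeks (5.91 to 8.09). Macrophage-like cells themselves had 2.70 and 1.75. The endothelial C1q level was 179 and 54.5 CPM, and that of Ptprc, which all leukocytes carry, was 21.5 and 3.81 CPM. Per UMI of the 7 pan-leukocyte genes, endothelial-like cells had 11.5 class II UMIs at 9 weeks and 5.46 at 6 weeks, near the 10.9 and 6.81 of macrophage-like cells.

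**Figure D4:**
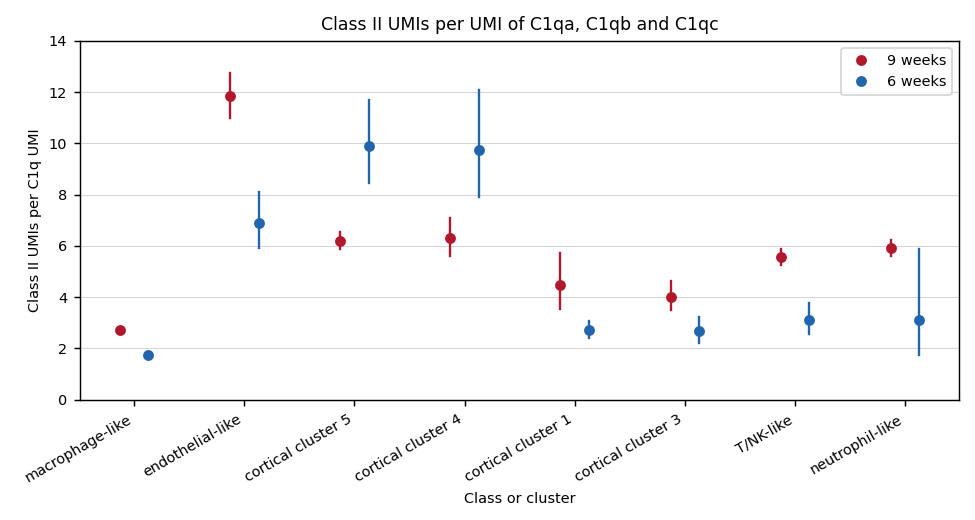
Class II UMIs per UMI of the 3 C1q genes by class, 9 weeks beside 6 weeks, with exact 95% intervals. Endothelial-like cells stand at 11.8 and 6.90, above T/NK-like cells at 5.56 and 3.11, and cortical cluster 5 at 6.20 and 9.91. The 9-week ratio of cluster 5 rests largely on 23 barcodes with 50 or more class II UMIs.

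Barcodes without a UMI of a set of leukocyte and macrophage genes were read on their own. A list of 15 genes joined 7 pan-leukocyte genes and 8 macrophage genes, without Fcer1g, which stood at 696 and 568 CPM in endothelial-like cells. It was chosen after the data had been seen. None of the 15 was seen in 636 endothelial-like cells at 9 weeks and 1021 at 6 weeks. Their class II sum was 1936 CPM (1869 to 2004) and 317 CPM (295 to 341), against 2225 and 501 CPM in the endothelial-like cells with any of the 15. Ciita stood at 16.5 and 3.87 CPM in them, and 14% and 1.18% of them had 10 or more class II UMIs. In the barcodes with none of the 15 genes the class II sum had a ratio of 6.10 between the ages, beside 5.62 in all endothelial-like cells. The list covers pan-leukocyte and macrophage genes only, and the part of free RNA or of other leukocytes in these values was not tested. Of the 239 endothelial-like cells at 9 weeks with 10 to 49 class II UMIs, 88 had none of the 15 genes, 36.8% (30.7% to 43.3%), against 46.6% of the 206 with no class II UMI (39.6% to 53.7%). The 7 with 50 or more were unlike them, with a mean of 79.0 UMIs of the 15 genes.

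In endothelial-like cells few genes of the pathway lists were past 1.5-fold. Of 9 measured genes of the transcription factor list 0 were higher or lower, and Irf1 had 228 CPM at 9 weeks and 183 CPM at 6 weeks. Of 7 peptide-processing genes 2 were higher, Ctss, the protease that trims the invariant chain, with 46.3 and 11.7 CPM, and Ifi30, a lysosomal thiol reductase, with 21.5 and 12.3 CPM. Both are abundant in macrophages, at 4705 and 606 CPM at 9 weeks, and the part of free RNA in their endothelial levels was not tested. The share of Cd74 in the class II sum was 48.4% at 9 weeks and 33.5% at 6 weeks in endothelial-like cells, against 48.6% and 54.2% for T/NK-like cells.

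In CPM, adrenocortical-like cells held less class II than endothelial-like cells. Their sum was 492 CPM at 9 weeks (483 to 502) and 50.8 CPM at 6 weeks (48.9 to 52.6). This gave a ratio of 9.70 (9.18 to 10.3). The ratio was lower within each large cluster, at 5.60 in cluster 1, 4.00 in cluster 3 and 3.78 in cluster 5. Of the class, 675 of 1417 cells were in cluster 5 in the 9-week library, against 486 of 3703 in the 6-week library. With the clusters given equal weight the log2 ratio was 1.91 beside 3.16, and in barcodes without the 15 genes the ratio was 4.53. These levels too depended on doublet removal, and were 1723 and 134 CPM with called doublets kept. All 6 measured members were higher at 9 weeks, where 6.67% of all genes were higher and 2.79% lower. Cd74 stood at 211 and 21.7 CPM, H2-Ab1 at 112 and 11.2 CPM, H2-Aa at 87.2 and 9.13 CPM, and H2-Eb1 at 82.2 and 8.77 CPM. Ciita stood at 2.62 and 0.39 CPM, below the 10 CPM needed for a call, and H2-DMb2, H2-Oa and H2-Ob had 12, 16 and 13 UMIs at 9 weeks and 3, 4 and 14 UMIs at 6 weeks. At 2000 UMIs per cell, Ciita was seen in 0.58% of cells at 9 weeks, a value inside the interval around the 1.12% of T/NK-like cells. At 6 weeks it was seen in 0 of 3660 cells, whose exact upper limit is 0.10%. The share with 3 or more class II UMIs was 7.4% and 0.96% at that depth, beside 8.38% and 2.67% of T/NK-like cells, with unlike values in the clusters. Thinning removed more UMIs from adrenocortical-like barcodes, with medians of 15432 and 15745 UMIs, than from T/NK-like barcodes, with 3901 and 3369 UMIs. As counted, 10.7% and 1.08% of adrenocortical-like barcodes held 10 or more class II UMIs, against 4.15% and 1.31% of T/NK-like barcodes. The mean per adrenocortical-like barcode was 7.44 class II UMIs at 9 weeks and 0.80 at 6 weeks. In the shallower endothelial-like barcodes, with medians of 2631 and 2106 UMIs in all, it was 5.84 and 0.87. Median class II UMIs were 2 and 0 in adrenocortical-like and 3 and 0 in endothelial-like barcodes.

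The clusters of the class were unlike. Cluster 1, led by Cyp2f2 and Akr1d1, and cluster 3 both had Cyp11b1 and Cyp21a1, the last steps of corticosterone synthesis, among their leading genes. They were low in class II, at 139 and 104 CPM at 9 weeks and 24.9 and 26.0 CPM at 6 weeks, against 1061 and 281 CPM in cluster 5. Their medians of 2 and 1 class II UMIs per barcode at 9 weeks and 0 at 6 weeks were near the 3 and 0 of cluster 5. Their ratios to C1q, 4.48 and 4.02 at 9 weeks and 2.72 and 2.67 at 6 weeks, lay under the 5.15 and 3.27 of all kept cells, although the interval of cluster 1 at 9 weeks, 3.54 to 5.72, held that value. None of their barcodes without the 15 leukocyte and macrophage genes had 10 or more class II UMIs, in 51 and 184 such barcodes at 9 weeks and 1431 and 671 at 6 weeks.

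Cluster 5 held most of the class II UMIs of the adrenocortical-like cells, 9116 of 10540 at 9 weeks and 1645 of 2970 at 6 weeks. It was led by Ly6d, Ptn and Igfbp7, had 675 cells at 9 weeks and 486 at 6 weeks, and had 10 or more class II UMIs in 21.2% and 7.61% of them. Its class II sum was 1061 CPM at 9 weeks and 281 CPM at 6 weeks. At 9 weeks the highest barcodes carried macrophage transcripts with it. All 23 with 50 or more class II UMIs had some of the 15 genes, with a mean of 117 UMIs, and 18 of them had C1q. Where none of the 15 was seen, in 218 cells at 9 weeks and 341 at 6 weeks, the sum was 439 and 293 CPM, and 14.7% and 7.33% had 10 or more class II UMIs.

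The 6-week barcodes of cluster 5 showed class II in cells without macrophage transcripts. Of the 8 with 50 or more class II UMIs, 7 had none of the 15 genes, and 0 had C1q. They held a mean of 70.8 class II UMIs, a mean of 168 UMIs of 6 cortical genes with 78 as the lowest, and no UMI of 6 endothelial genes. H2-DM was seen in all 8 and Ciita in 2. Their mean doublet score was 0.04, against 0.12 in the 23 such barcodes at 9 weeks. The class II to C1q ratio of cluster 5 was 6.20 at 9 weeks (5.86 to 6.55) and 9.91 at 6 weeks (8.44 to 11.7). At 6 weeks it stood above the T/NK ratio of 3.11. The 9-week ratio rests largely on the 23 barcodes with 50 or more class II UMIs, which held means of 234 class II and 50.9 C1q UMIs. The part of those barcodes in the difference between the ages was not tested. Cortical cluster 4 had ratios of 6.30 and 9.73, also above the T/NK ratio at 6 weeks. It held 221 CPM at 9 weeks and 120 CPM at 6 weeks, all 4 of its measured members were higher where 1.32% of all genes were, and 1 barcode at 6 weeks had 144 class II UMIs with none of the 15 genes.

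**Figure D5:**
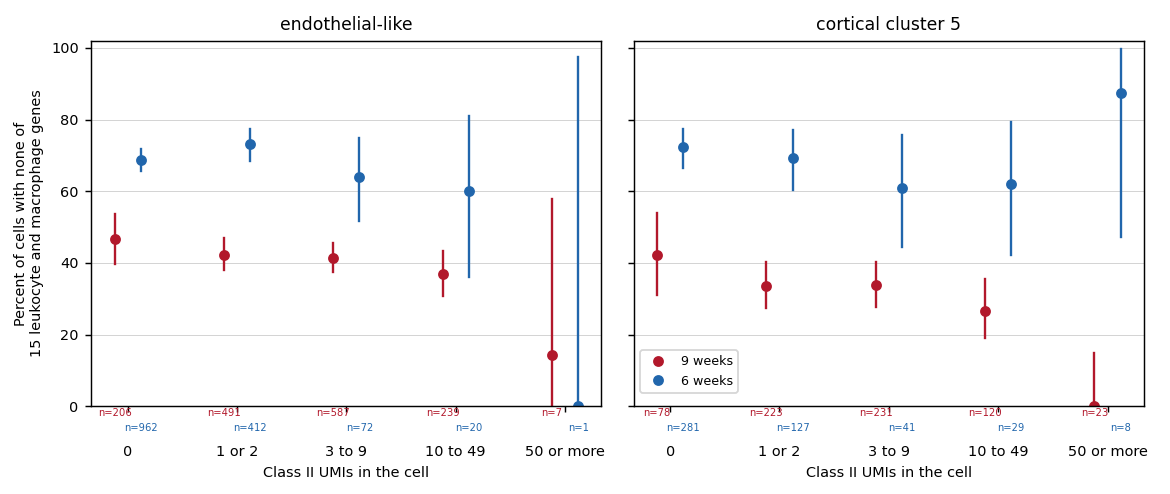
Percent of barcodes in which none of 15 leukocyte and macrophage genes was seen, by class II UMIs per barcode as counted, in endothelial-like cells (left) and cortical cluster 5 (right), with 9 weeks left of 6 weeks, exact 95% binomial intervals and the number of barcodes. In the highest bin of cluster 5 it is 0 of 23 barcodes at 9 weeks and 7 of 8 at 6 weeks.

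In adrenocortical-like cells, 0 of 8 genes of the transcription factor list were higher. Irf8 was the 1 that was lower, with 19.6 CPM at 9 weeks and 47.3 CPM at 6 weeks. Irf1 was past 1.5-fold, with 24.7 CPM at 9 weeks and 12.2 CPM at 6 weeks. The shares of cortical clusters in the class differed between the ages, so the part of that shift in these values was not tested.

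By the likeness of their log levels over the 22 pairs of class and library, the 5 genes closest to Ciita among 9924 were Ly86 (r = 0.94), Cd180, Fgd2, Pkib and Prcp. Ly86 was also the closest to the class II sum (r = 0.95), followed by Fgd2, Cd180, Pkib and Pld4. Ly86 stood at 896 CPM in macrophage-like cells at 9 weeks and 544 CPM in B-like cells, against 8.51 CPM in endothelial-like cells and 23.5 CPM in the T/NK-like class. The order of the last pair was the reverse of that for Ciita, at 16.8 CPM and 9.23 CPM. Of the members, H2-DMa (r = 0.99) and H2-DMb1 (r = 0.94) followed the sum, and H2-DMb2 (r = 0.76), H2-Oa (r = 0.73) and H2-Ob (r = 0.72) did so less closely. H2-DO had its own closest genes, Btla (r = 0.95) and Ap1s3 first, a rule added after the data had been seen.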

How the data were processed

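The authors deposited whole-number counts of UMIs per gene and barcode, with no normalization. The submitters' processing notes name Cell Ranger 6.0.1, the build mm10 and Seurat without a version. Which annotation release was used is not given in the sources here. Red cells were lysed and viable single cells were sorted, per the labels' protocols, and libraries were made with a Chromium 3' kit. The matrices held 10812 barcodes with 99728879 UMIs at 9 weeks and 8880 barcodes with 97001752 UMIs at 6 weeks.

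Rows with the same symbol were summed, from 32285 to 32245. Barcodes under 500 genes (221 at 9 weeks, 161 at 6 weeks) or over 25% mitochondrial UMIs (64 and 111) were left out. Scrublet in scanpy 1.11.5 then called doublets in 5.57% and 5.52%, with 8.42% and 6.89% expected. Without the class II genes, 2000 variable genes, 30 components and 20 neighbours entered Leiden clustering (leidenalg 0.10.2, resolution 1), which gave 35 clusters. Clusters were named from the markers of 21 classes, and 8 stayed unnamed, with 472 cells at 9 weeks and 312 at 6 weeks. UMIs were summed per class and library (CPM). A call needed 1.5-fold with 5 CPM added, 10 CPM in either library and 10 UMIs. Shares of cells were taken at 2000 UMIs, with exact intervals. Sequences came from the RefSeq promoter table (GRCm38.p6). The scripts were tested on simulated data.

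The members, the gene lists and the rule for named genes (every member, list genes past 1.5-fold and the 5 closest genes) were chosen with earlier results of these data known. The C1q ratio, the 15-gene list and the closest genes of H2-DO were added after seeing the values here. Other pseudocounts, filters, depths, doublet handling and clustering were tried as alternatives. Tests between ages were left out, since each age has 1 library. The counts of the list from interferon gamma to Ciita are not reported here.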

Additional observations from a re-analysis of the deposited data

Results flagged for a closer look

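Against the higher values elsewhere, H2-Ab1 in type 2 dendritic-like cells had a log2 ratio of 9 over 6 weeks of -0.12, below 0 beyond counting error, while it was higher by 1.5-fold in 6 classes. H2-Eb1 in type 1 dendritic-like cells had a log2 ratio of -0.05, also below 0 beyond counting error, and was likewise higher by 1.5-fold in 6 classes. The difference between classes was not tested in either case. The type 2 dendritic-like cells also held 508 UMIs of 6 B-cell genes at 9 weeks and 10634 at 6 weeks, and the part of these in the ratio was not tested.

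Class II was also present in barcodes that entered no comparison. Barcodes under 500 genes held 14099.5 CPM at 9 weeks and 5027.52 CPM at 6 weeks, and barcodes called doublets held 22596.8 CPM at 9 weeks and 4214.13 CPM at 6 weeks. Kept cells held 21858 CPM and 4773 CPM.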

How the results depend on the processing

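No paired analysis was possible because each age has 1 library. Age, library and the number of pooled glands cannot be told apart. The log2 ratio of the class II sum kept its sign under every alternative in macrophage-like (0.72 to 0.88), endothelial-like (2.43 to 2.65), adrenocortical-like (1.91 to 3.64), T/NK-like (1.93 to 3.14) and neutrophil-like cells (2.62 to 4.91) and in cluster 4 (0.65 to 0.92). In monocyte-like cells it ranged from -0.04 to 0.08. Of 77 ratios of single genes with 645 alternative values, 94 values moved and 0 turned their sign while called. A value counted as moved past a fixed shift in log2 ratio, set from the 1.5-fold threshold, and counting error did not enter.

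The count of members higher at 9 weeks was 1 in type 2 dendritic-like cells with the mean of each cell's CPM. In B-like cells it was 0 with a pseudocount of 20 CPM, where cells needed 1000 genes and with at most 10% mitochondrial UMIs. In monocyte-like cells it was 1 with 20 CPM, 1 with doublets kept and 0 with the mean of each cell's CPM. It was 2 in cluster 4 with 20 CPM and 8 in T/NK-like cells with doublets kept.

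Shares of cells with a class II UMI followed depth. At 1000 UMIs, at 4000 UMIs and unthinned they were 66.1%, 91.2% and 86.5% in endothelial-like cells at 9 weeks, and 21.1%, 39.6% and 34.4% at 6 weeks. In adrenocortical-like cells they were 20.4%, 49% and 85.3% at 9 weeks, and 4.05%, 10.7% and 32.7% at 6 weeks. With at least 2 and at least 5 class II UMIs, in place of 3, the shares were 60.8% and 28.5% in endothelial-like cells at 9 weeks, 10.4% and 3.28% at 6 weeks, 12.3% and 3.34% in adrenocortical-like cells at 9 weeks, and 1.34% and 0.519% at 6 weeks. The adrenocortical-like shares with doublets kept were 10.6% and 1.52%. In barcodes without the 15 genes they were 3.89% in endothelial-like cells at 6 weeks and 4.34% in adrenocortical-like cells at 9 weeks, and without both whole lists 4.56% there.

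Class II UMIs per pan-leukocyte UMI in endothelial-like cells, 11.5 at 9 weeks and 5.46 at 6 weeks, were 1.95 and 0.538 per UMI of the macrophage list, which holds Fcer1g. They were 8.67 at 9 weeks with doublets kept, and 6.90 per C1q UMI at 6 weeks. With doublets kept the class II sum was 29486 CPM in macrophage-like cells at 6 weeks, 6805 and 1077 CPM in endothelial-like cells, and 1723 and 134 CPM in adrenocortical-like cells. Where no cause is given, the cause was not tested.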

Other observations

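Cells in unnamed clusters, 472 at 9 weeks and 312 at 6 weeks, held 15783 CPM and 3528 CPM of class II. Mast/basophil-like cells numbered 48 and 19 and were not compared. At 9 weeks 12 of the 48 had 10 or more class II UMIs, and none of the 19 did at 6 weeks. Neutrophil-like cluster 27, with 72 cells at 9 weeks and 0 at 6 weeks, held 97.96% of its class II UMIs in 12 barcodes.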
